A study of Mus musculus with 2 samples.

Results

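Of the 2202 annotated miRNA genes counted in mouse hippocampus, 9 are let-7 genes that lie outside the clusters shared with miR-99/100 and miR-125 genes. They were chosen by gene identifier in the GENCODE M21 annotation. Mirlet7g and Mirlet7i are single loci. The other 7 lie in 3 clusters: Mirlet7b with Mirlet7c-2, Mirlet7a-1 with Mirlet7f-1 and Mirlet7d, and Mirlet7f-2 with Mir98. All 9 were found in both count tables.

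The tissue was hippocampus of male B6CASTF1/J mice, hybrids of the C57BL/6J and CAST/EiJ strains, aged 14 days. The series holds 1 group of 2 libraries, replicate 1 and replicate 2, and each label names 3 males. Both carry the same donor identifier and how tissue was pooled is not said, so the spread between these samples may be in part technical. With no second condition, genes were compared with each other inside each library, and the libraries with each other.

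The let-7 family is an ancient miRNA family that accumulates as cells leave the progenitor state and differentiate, and it is abundant in maturing brain. Its members repress messages such as Lin28a, Hmga2 and Trim71. In turn the LIN28 proteins bind the terminal loop of let-7 precursors and block their maturation. A miRNA gene makes a hairpin, from which a 5p and a 3p strand can be cut. In let-7 genes the 5p strand is the usual guide, and its seed, bases 2 to 8, sets which messages it pairs with.

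The 9 genes encode 8 distinct 5p strands, all 22 bases long and all with 1 seed. The sequences are shown because the levels below are read against whether a gene's 5p strand is also encoded elsewhere. They come from RefSeq on GRCm38.p6, with the seed in capitals.
let-7b-5p (Mirlet7b): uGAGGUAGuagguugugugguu
let-7c-5p (Mirlet7c-2, also Mirlet7c-1): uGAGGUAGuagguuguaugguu
let-7a-5p (Mirlet7a-1, also Mirlet7a-2): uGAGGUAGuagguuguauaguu
let-7f-5p (Mirlet7f-1 and Mirlet7f-2): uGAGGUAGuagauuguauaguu
let-7d-5p (Mirlet7d): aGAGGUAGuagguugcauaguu
miR-98-5p (Mir98): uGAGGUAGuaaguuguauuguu
let-7g-5p (Mirlet7g): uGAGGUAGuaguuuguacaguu
let-7i-5p (Mirlet7i): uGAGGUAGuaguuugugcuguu

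Counted from 1 at the 5′ end and with let-7a as the first base, let-7c differs by A19G and let-7f by G12A. Strand let-7b has A17G and A19G, so that let-7b and let-7c are 1 base apart. Strand let-7d has U1A and U16C and is the only one of the 8 that starts with A. Strand miR-98 has G11A and A19U, let-7g has G12U and U18C, and let-7i has G12U, A17G, U18C and A19U. The nearest neighbour of let-7i is let-7g, 2 bases away. All 9 genes have a 5p entry in the RefSeq table, and their RefSeq hairpins are identical to the GENCODE hairpins.

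Searched in all 2202 annotated hairpins, in either orientation and leaving out genes that overlap on the genome, the 5p strands of Mirlet7b, Mirlet7d, Mir98, Mirlet7g and Mirlet7i occur in no other gene. Those of Mirlet7c-2, Mirlet7a-1, Mirlet7f-1 and Mirlet7f-2 each occur in another. The 3p strands of Mirlet7a-1 and Mirlet7c-2 are also identical to each other, so both strands of either gene exist elsewhere. Those of the remaining 7 genes, Mirlet7f-1 and Mirlet7f-2 among them, are their own. The 3p strands of these 4 genes are shown to let them be compared, with bases 2 to 8 in capitals.
let-7a-1-3p: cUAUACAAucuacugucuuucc
let-7c-2-3p: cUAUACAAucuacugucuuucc
let-7f-1-3p: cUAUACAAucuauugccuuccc
let-7f-2-3p: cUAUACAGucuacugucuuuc

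The 9 genes together held 699745 of the 3793934 counts on miRNA genes in replicate 1 and 587294 of 2554997 in replicate 2. That is a share of 18.4% for replicate 1 (18.40 to 18.5, 95% Wilson interval) and of 23.0% for replicate 2 (22.9 to 23.04), with a mean of 20.7% ± 3.21 (SD, n = 2). Wilson intervals cover counting error alone: reads were amplified and carry no molecular identifiers, so they are not independent molecules. As a share of all reads, assigned or not, the 9 genes held 5.07% and 8.11%. Reads that mapped to several places went to no gene and were 26.3% of reads in replicate 1 and 37.5% in replicate 2, and unmapped reads 41.3% and 20.7%. Their part in the difference between the libraries was not tested. In tissue RNA, fewer cells of a type and less RNA per cell cannot be told apart.

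Levels are in CPM, the counts of a gene per 1000000 counts assigned in its library. Strands of a hairpin are not separated in the files, so a level is that of the gene. Mirlet7b had 78296 CPM in replicate 1 and 95922 CPM in replicate 2, and it ranked first of all miRNA genes in both. It lies at chr15:85707319-85707403 (mm10, plus strand), within an exon of Lncppara, a non-coding gene. Mirlet7i had 48323 and 60810 CPM and ranked 6 and 5. It lies at chr10:122985640-122985724 on the minus strand, in an exon of the transcribed pseudogene D630033A02Rik. Mirlet7g had 31776 and 44286 CPM and ranked 8 and 6. It lies at chr9:106178840-106178927 on the plus strand, in an intron of Wdr82, which encodes a subunit of a histone methyltransferase complex. All 3 genes stood among the 8 highest in each library.

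Mirlet7d had 19614 CPM in replicate 1 and 22340 CPM in replicate 2. It lies at chr13:48536012-48536114 on the minus strand, in an exon of the lincRNA 6720427I07Rik. The same lincRNA holds Mirlet7f-1 at chr13:48537829-48537917 and Mirlet7a-1 at chr13:48538179-48538272, each in an exon, and the 3 genes span 2261 bases. Mirlet7a-1 had 274 and 249 CPM, from 1040 and 635 counts. Mirlet7f-1 had 83.6 and 84.5 CPM, from 317 and 216 counts, and was the lowest of the 9 in both libraries. Ranks were 11 and 8 for Mirlet7d, 168 in both libraries for Mirlet7a-1, and 214 and 213 for Mirlet7f-1.

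Mirlet7c-2 had 2379 CPM in replicate 1 and 3140 CPM in replicate 2. It lies at chr15:85706603-85706697, in an exon of Lncppara and 621 bases before Mirlet7b. On the X chromosome, Mir98 at chrX:151913214-151913321 had 2228 and 1560 CPM. Mirlet7f-2 at chrX:151912346-151912428 had 1465 and 1468 CPM. Both lie on the plus strand in an intron of Huwe1, the gene of a ubiquitin ligase, with 785 bases between them. The SD between the libraries was 472 CPM for Mir98 and 2.03 CPM for Mirlet7f-2 (n = 2).

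**Figure D1:**
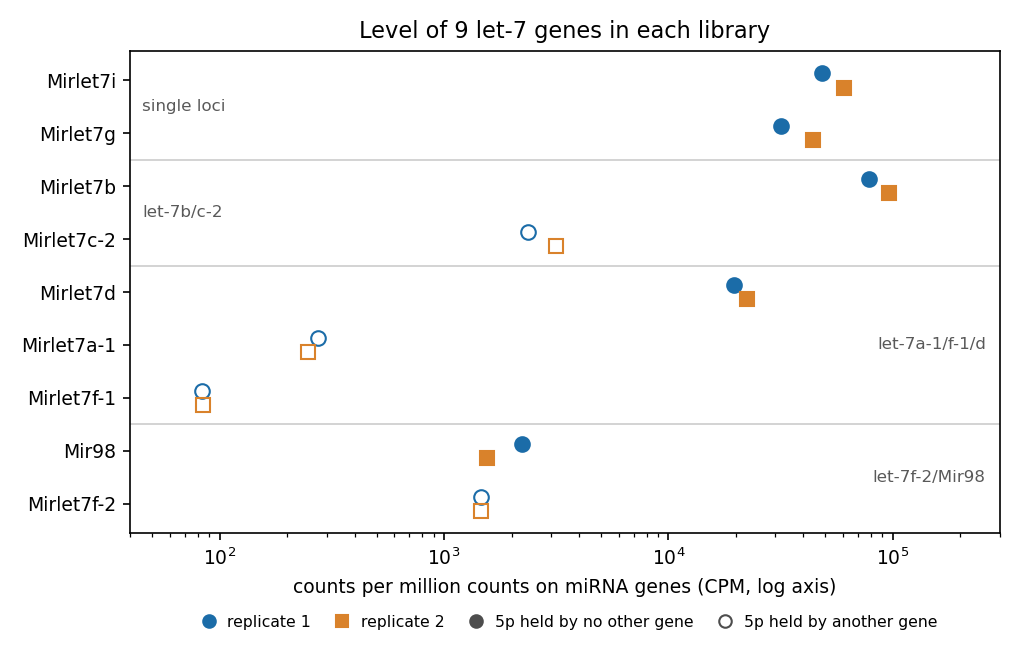
Level of each gene in CPM (log axis) by library, grouped by locus. Filled symbols mark genes whose 5p strand no other gene holds and open symbols those whose 5p strand is shared. Open symbols lie at 3140 CPM or lower, and filled ones at 1560 CPM or higher.

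By mean CPM the order was Mirlet7b (87109 ± 12463, SD, n = 2), Mirlet7i (54567 ± 8830), Mirlet7g (38031 ± 8846), Mirlet7d (20977 ± 1928), Mirlet7c-2 (2760 ± 538), Mir98 (1894 ± 472), Mirlet7f-2 (1467 ± 2.03), Mirlet7a-1 (261 ± 18.1) and Mirlet7f-1 (84.05 ± 0.697). An SD of 2 values can be small by accident, and those of Mirlet7f-2 and Mirlet7f-1 lie below counting error. Intervals for counting error of their ratio of replicate 1 to replicate 2 were 0.958 to 1.04 and 0.832 to 1.17. The order was the same in both libraries, and no neighbours overlapped over the libraries. The margin was narrow between Mirlet7c-2, at 2379 CPM in its lower library, and Mir98, at 2228 CPM in its higher one. It was narrow again between Mir98, at 1560 CPM in its lower library, and Mirlet7f-2, at 1468 CPM in its higher one. Divided by hairpin length, 83 to 108 bases, the levels ran from 1025 CPM per base for Mirlet7b to 0.944 CPM per base for Mirlet7f-1. On that scale 1 pair changed place: Mir98 stood at 17.5 ± 4.37 and Mirlet7f-2 at 17.7 ± 0.0244 CPM per base (SD, n = 2), a difference within the spread. That scale was chosen after seeing the data.

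The widest step in the order, between Mirlet7d and Mirlet7c-2, was 8.24-fold in replicate 1 and 7.11-fold in replicate 2. Of the 5 genes whose 5p strand is their own, 4 lay above that step and Mir98 below it. All 4 genes with a shared 5p strand lay below it. Those with their own strand held 97.7% of the counts on the 9 genes in replicate 1 (97.69 to 97.8, 95% Wilson interval) and 97.9% in replicate 2 (97.81 to 97.9). The 4 genes with a shared strand held 2.28% and 2.15%. Reads that map to several places were given to no gene, so the counts of these 4 genes are uncertain and can be too low. Which strand or which ends of the hairpins gave their remaining counts cannot be told apart in the files.

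For scale, shared strands were counted over all genes. Symbols of 1018 of the 2202 genes matched the RefSeq table of mature strands. Of these, 111 had an entered strand, 5p or 3p, that another annotated gene also holds, and 907 had none. Strands with no entry under a gene's own symbol were not searched, so some of the 907 can share one. Mirlet7a-2 is among them, since only its 3p strand is entered. Detected genes, those at 2 CPM or more in each library, were 47 of the 111 (42.3%) and 334 of the 907 (36.8%). Their median level was 84.05 CPM with a shared strand and 106 CPM without. A mean of 1000 CPM was reached by 11 of the 111 (9.91%) and 89 of the 907 (9.81%). At 10000 CPM the counts were 0 of the 111, with the highest at 5824 CPM, and 21 of the 907 (2.32%). Among the 111 were 50 genes with every annotated strand shared, Mirlet7a-1 and Mirlet7c-2 included. Only 7 of these 50 (14%) were detected, with a median of 261 CPM, and 2 (4%) reached a mean of 1000 CPM.

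Single loci were next set against clusters. Mirlet7i and Mirlet7g together held 80098 CPM in replicate 1 and 105097 CPM in replicate 2, against 104339 and 124764 CPM for the 3 clusters. The ratio of single loci to clusters was 0.768 in replicate 1 and 0.842 in replicate 2, a mean log2 ratio of -0.31 ± 0.09 (SD, n = 2). Both single loci have a 5p strand of their own, while 4 of the 7 clustered genes share theirs. Reads that map to several places went to no gene, so the clusters can be counted too low and this ratio can be too high. With 2 libraries of 1 group, the smallest two-sided p of an exact test over samples would be 0.5, so ratios are given with no test. The cluster of Mirlet7b and Mirlet7c-2 held 80675 and 99062 CPM, or 43.7% and 43.1% of the counts on the 9 genes. Mirlet7i held 26.2% and 26.5% of them, Mirlet7g 17.2% and 19.3%, the cluster of Mirlet7d 10.8% and 9.86%, and the X-linked pair 2.00% and 1.32%. Counts of the 5 loci thus kept the same order in both libraries.

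**Figure D2:**
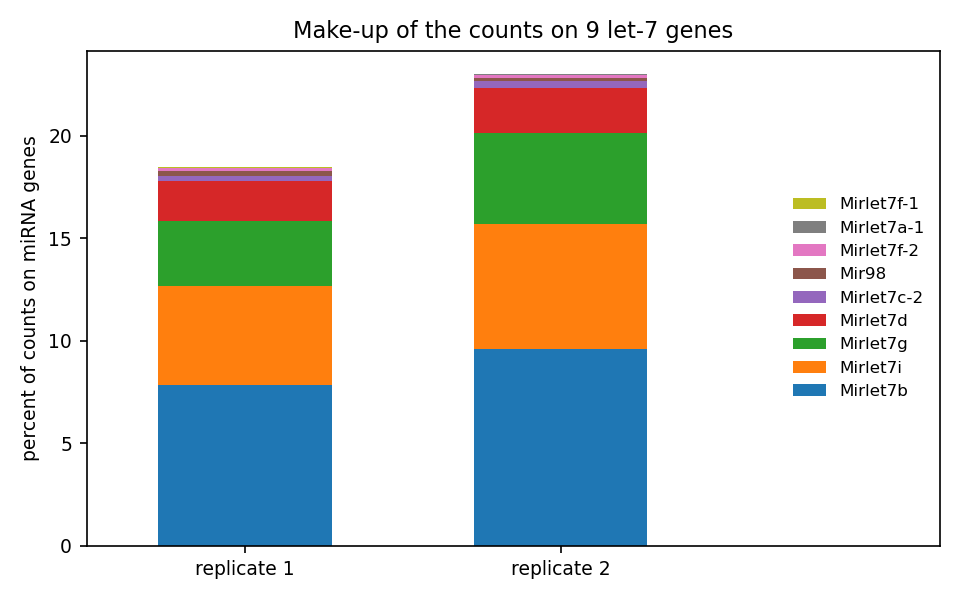
Percent of counts on miRNA genes held by each of the 9 genes, stacked, in replicate 1 and replicate 2. The bars end at 18.4% and 23.0%, and Mirlet7b, Mirlet7i, Mirlet7g and Mirlet7d make up nearly all of both.

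Against single clusters, Mirlet7i stood at 0.599 and 0.614 times the cluster of Mirlet7b and Mirlet7c-2 in replicates 1 and 2, the steadiest of these ratios (mean log2 ratio -0.72 ± 0.03, SD, n = 2). Mirlet7g stood at 0.394 and 0.447 times that cluster. Relative to the cluster of Mirlet7d, Mirlet7i was 2.42-fold and 2.68-fold and Mirlet7g 1.59-fold and 1.95-fold higher. Relative to the X-linked pair, Mirlet7i was 13.1-fold and 20.1-fold and Mirlet7g 8.60-fold and 14.6-fold higher. Of the ratios of a single locus to a cluster, those to the X-linked pair moved most between the libraries (SD of log2 ratio 0.54 for Mirlet7g and 0.44 for Mirlet7i). Mirlet7i was above Mirlet7g by 1.52-fold in replicate 1 and 1.37-fold in replicate 2 (mean log2 ratio 0.53 ± 0.10, SD, n = 2).

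Clustered miRNA genes are often cut from a common primary transcript. Their counts were far apart in 2 of the 3 clusters. Mirlet7b was 32.9-fold above Mirlet7c-2 in replicate 1 (95% interval for counting error 32.2 to 33.6) and 30.5-fold in replicate 2 (29.9 to 31.2). Mirlet7d was 71.6-fold and 89.9-fold above Mirlet7a-1, and 235-fold and 264-fold above Mirlet7f-1. In each of these comparisons the higher gene has its own 5p strand and the lower one a shared 5p strand. The cluster on the X chromosome differed from this, although Mirlet7f-2 has a shared 5p strand. Mir98 was 1.52-fold above Mirlet7f-2 in replicate 1 (1.47 to 1.57) and 1.06-fold in replicate 2 (1.02 to 1.11). Mir98 was thus the higher in each library, but the mean log2 ratio, 0.35 ± 0.37 (SD, n = 2), was no larger than its SD.

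Genes with an identical strand were also compared, because reads of that strand cannot be placed on either of them. Mirlet7f-2 had 5559 counts in replicate 1 and 3751 in replicate 2, against 317 and 216 for Mirlet7f-1. The ratio was 17.5 in replicate 1 and 17.4 in replicate 2, and their intervals for counting error (15.7 to 19.6, and 15.1 to 19.9) overlap. Their 3p strands differ. Mirlet7c-2 and Mirlet7a-1, with the same 3p strand and different 5p strands, were 8.68-fold and 12.6-fold apart. Mirlet7c-2 was 3.34-fold and 2.83-fold above Mirlet7c-1, and Mirlet7a-1 was 2.45-fold and 1.53-fold above Mirlet7a-2, where the pairs have the same 5p strand. In each of these last 2 pairs the gene outside the clusters shared with miR-99/100 and miR-125 genes was the higher one in both libraries.

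**Figure D3:**
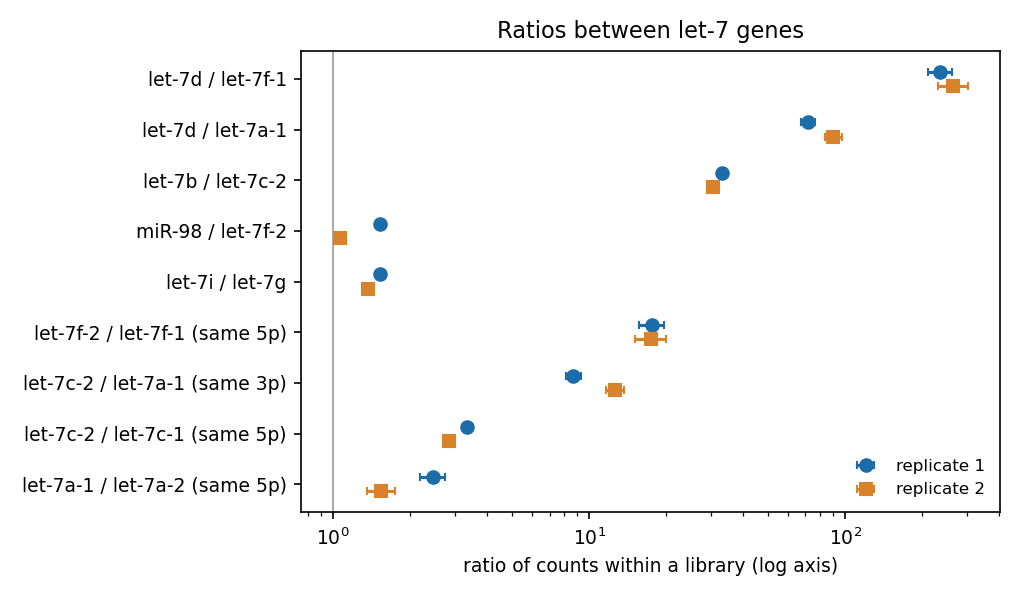
Ratio of the counts of 2 genes inside each library (log axis), with 95% intervals for counting error as bars, many of them smaller than the symbols. Ratios within the let-7b and let-7d clusters lie above 30, and miR-98 over let-7f-2 lies between 1.06 and 1.52.

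Mirlet7f-1 had 0 counts in both libraries in the column that ignored strand, with 317 and 216 on its own strand. Another annotated miRNA gene, Gm24111, covers it on the opposite strand at chr13:48537825-48537921, and had 0 counts of its own. Of the other 8 genes none overlaps a gene on the opposite strand, and their counts in the 2 columns were the same to within 5 counts.

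The 3 let-7 genes inside the clusters shared with miR-99/100 and miR-125 genes were set beside the 9 genes. The 9 genes held 184438 and 229861 CPM in replicates 1 and 2, against 16768 and 17369 CPM for those 3. The 9 genes were thus 11.0-fold and 13.2-fold higher in sum (mean log2 ratio 3.59 ± 0.19, SD, n = 2). Mirlet7e, the only one of the 3 whose 5p strand no other gene holds, had 15944 and 16098 CPM. It stood below Mirlet7d and above Mirlet7c-2 in both libraries. Mirlet7c-1 had 712 and 1108 CPM and Mirlet7a-2 had 112 and 162 CPM. Of the let-7 counts in all, the 9 genes held 91.7% and 93.0%.

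By the RefSeq table, the let-7 seed is also found in miR-1961 and let-7k. Mir1961 had 0 counts in both libraries, which allows up to 0.791 and 1.17 CPM from 3 counts of the total, by counting error alone. The let-7k gene, named Mir7k in the annotation, had 2 counts in each library. The let-7j gene, Mir7j, had 50 and 52 counts, or 13.2 and 20.4 CPM, and its seed GAGGUAU is not that of let-7. Together these 3 genes held 0.00681% and 0.00855% of the let-7 counts.

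The terminal loops of the hairpins were searched on the RNA strand for GGAG, the motif at which LIN28 proteins are known to bind let-7 precursors. The loop was taken as all bases between the annotated 5p and 3p strands. Of the 9 genes, 6 have the motif there, against 52 of the 644 RefSeq hairpins with both strands annotated (8.07%). Of the 3 let-7 genes in the clusters shared with miR-99/100 and miR-125 genes, 2 have both strands annotated, Mirlet7c-1 and Mirlet7e, and both have the motif, so it does not set the 9 genes apart from other let-7 genes. Mirlet7b, Mirlet7c-2 and Mir98 have no match. The loops of the 9 genes have a median length of 32 bases, against 16 bases for the 644. Loops of the single loci and of the highest cluster are shown with the motif in capitals.
Mirlet7g loop: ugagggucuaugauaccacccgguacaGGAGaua
Mirlet7i loop: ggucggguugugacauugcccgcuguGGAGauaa
Mirlet7b loop: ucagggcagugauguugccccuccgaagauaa
Mirlet7c-2 loop: uugggcucugccccgcucugcgguaa
By mean CPM the genes with no match were Mirlet7b, the highest of the 9, and Mirlet7c-2 and Mir98 in the middle of the order. The genes with a match were Mirlet7i, Mirlet7g and Mirlet7d, next after Mirlet7b, and at the low end Mirlet7f-2, Mirlet7a-1 and Mirlet7f-1. A missing match says only that these letters are not in this window.

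The libraries were last compared with each other by an exact binomial test (two-sided, with the totals of both libraries as given). Benjamini-Hochberg adjustment ran over the 507 genes that had a sum of at least 10 counts. The test compares these libraries and covers counting error only. Of all tested genes 52.1% passed, 26.8% lower and 25.2% higher in replicate 1. Of the 9 let-7 genes, 6 passed, with 5 lower and 1 higher in replicate 1, and adjusted p was 1.24e-71 or less for each in the exact binomial test. At these high counts small differences pass, and among 111 tested genes whose mean was at least 1000 CPM only 8 did not pass.

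The 5 genes lower in replicate 1 were Mirlet7g at 0.718-fold, Mirlet7c-2 at 0.758-fold, Mirlet7i at 0.795-fold, Mirlet7b at 0.816-fold and Mirlet7d at 0.878-fold of replicate 2. Mir98 was higher in replicate 1, at 1.43-fold. Mirlet7a-1 was at 1.10-fold with an interval of 0.999 to 1.22, Mirlet7f-1 at 0.988-fold with 0.832 to 1.17, and Mirlet7f-2 at 0.998-fold with 0.958 to 1.04, and these 3 did not pass. The median log2 ratio of replicate 1 to replicate 2 was -0.19 for the 9 genes and 0.02 for all tested genes. Per count assigned to miRNA genes, 0 of the 9 were over 1.5-fold apart between the libraries, against 41.8% of all tested genes. Among the 111 tested genes with a mean of at least 1000 CPM, 34 were that far apart. The count for the 9 genes rests on the denominator. Per all reads of a library, a setting chosen after seeing the data, 4 of the 9 were over 1.5-fold apart, against 46.0% of all tested genes. All 4 were lower in replicate 1, with Mirlet7g at 0.559-fold, Mirlet7c-2 at 0.591-fold, Mirlet7i at 0.619-fold and Mirlet7b at 0.636-fold of replicate 2. In a negative binomial test that used the common dispersion from edgeR, 0 of the 9 passed (0 at an unadjusted p under 0.05), against 0.394% of all tested genes. The dispersion was estimated from the same libraries, taken as replicates, so the differences under test entered it. Few genes can pass such a test, so it cannot show that the libraries are alike. That dispersion stands for a coefficient of variation of 0.377 between libraries, and the coefficients of the 9 genes ran from 0.00138 for Mirlet7f-2 to 0.249 for Mir98. Each coefficient comes from 2 values, and that of Mirlet7f-2 is below its counting error.

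**Figure D4:**
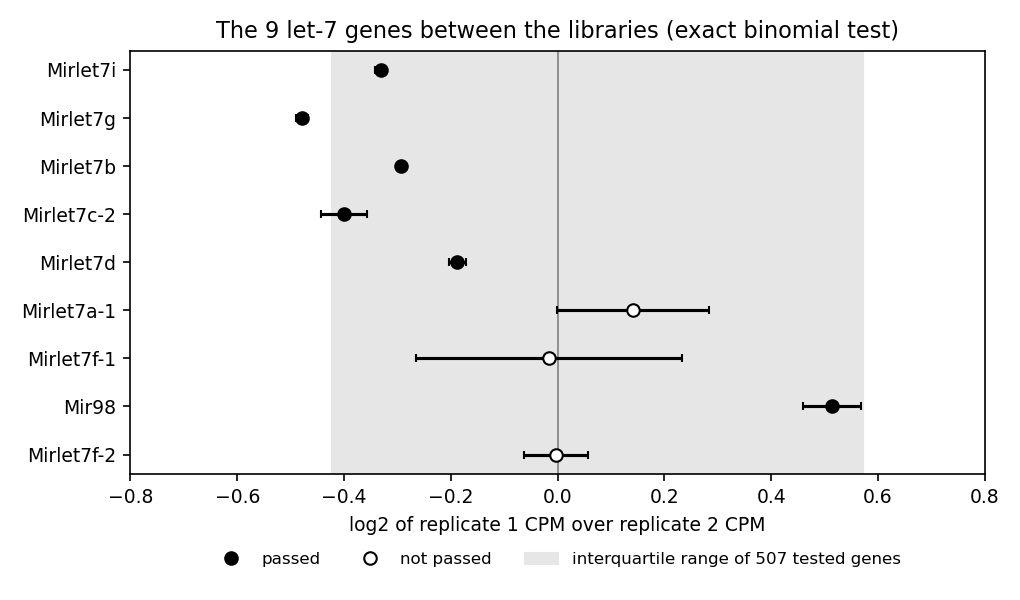
Log2 of replicate 1 CPM over replicate 2 CPM for the 9 genes, with 95% intervals for counting error as bars. Filled symbols passed the exact binomial test, and the grey band is the interquartile range of all 507 tested genes, -0.42 to 0.57, which holds all genes except Mirlet7g at -0.48.

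Markers of the tissue were also measured. Of 12 listed neuronal miRNA genes 8 were detected, with a sum of 33458 CPM in replicate 1 and 25886 CPM in replicate 2, and the highest was Mir132, with 17266 and 5947 CPM. Those not detected were Mir124a-1, Mir124a-2, Mir124a-3 and Mir9-2. Reads that map to several places went to no gene, so genes with a strand also encoded elsewhere can be counted too low or missed. Without Mir132 the neuronal sum was 16192 CPM in replicate 1 and 19939 CPM in replicate 2, and of the 12 genes 5 were higher and 7 lower in replicate 1. All 3 endothelial and mural markers were detected, with sums of 14332 and 11076 CPM. Without Mir126a, at 11308 and 7829 CPM, those sums were 3024 and 3248 CPM. The order of the libraries in both lists thus rests on 1 gene. All 3 oligodendrocyte markers were detected, with 4060 and 1247 CPM in sum. The 3 genes listed as myeloid summed to 1044 and 1096 CPM, of which 981 and 1047 CPM were Mir150, a miRNA known chiefly from lymphocytes. Without it the sums were 62.7 and 48.9 CPM, from Mir142 and Mir223. All 3 erythroid markers were detected, at 75.4 and 192 CPM in sum. Without Mir451a, at 41.9 and 162 CPM, those sums were 33.5 and 29.7 CPM, so here too the order of the libraries rests on 1 gene. Of 7 choroid plexus and ciliated cell markers 4 were detected, with sums of 1980 and 931 CPM, and Mir449b was at 0. The part of these markers in the difference of the let-7 genes between the libraries was not tested.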

How the data were processed

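MicroRNA sequencing libraries from 1 group, 2 replicates of hippocampus, were analysed. The deposited tables hold raw read counts per annotated miRNA gene in 3 columns, on mm10 with GENCODE M21 per the accompanying text. For the aligner, the counter and any trimming, no name is given in the sources used here. The tables have no header, so columns were read by position. The column taken as the gene-strand counts had the largest total in both libraries. The 4 rows of reads given to no gene (unmapped, multimapping, outside genes and ambiguous) stayed out of library sizes and tests. They made up 72.5% of reads in replicate 1 and 64.7% in replicate 2. Totals were 3793934 and 2554997 counts, so 1 count is worth 0.264 and 0.391 CPM.

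CPM and within-library ratios, with a pseudocount of 0.5 CPM on the log2 scale, were computed here. The libraries were compared by an exact binomial test (scipy 1.17.1), checked on simulated data that held counting error only. That check does not cover further spread between libraries. A quasi-likelihood fit needs replicates on each side of a contrast, so edgeR 4.0.16 gave only TMM factors, a common dispersion and a negative binomial test. DESeq2 1.42.0 gave size factors. R 4.3.3, Python 3.11.15, numpy 2.4.6, pandas 2.3.3 and matplotlib 3.10.9 were used. Mature and hairpin sequences came from RefSeq on GRCm38.p6. All 9 genes, the other let-7 genes and genes with the let-7 seed were named. Likeness of pattern across samples could not be measured with 2 libraries of 1 group. The members and lists were chosen with earlier results of these data known.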

Additional observations from a re-analysis of the deposited data

Results flagged for a closer look

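Mirlet7b had 5 counts on the opposite strand in replicate 1, above the 3 counts that a count of 0 allows, in a column that no comparison used. Replicate 2 had 2 such counts. They were 0.00168% and 0.000816% of the gene's counts on both strands. None of the other 8 genes had a count on the opposite strand.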

How the results depend on the processing

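No paired analysis was possible because the series has 1 group. With all reads of a library as denominator, levels per 1000000 reads were 28578 for the let-7b cluster, 17378 for Mirlet7i, 12186 for Mirlet7g, 6748 for the let-7d cluster and 1042 for the X-linked pair, and the share of the 9 genes was 6.59%, since unassigned reads then count. Per base of the hairpin, a scale chosen after seeing the data, the mean log2 ratio was 5.15 for Mirlet7b over Mirlet7c-2 and 7.75 for Mirlet7d over Mirlet7f-1, and it turned to -0.0336 for Mir98 over Mirlet7f-2. With TMM-scaled totals, the log2 ratio of replicate 1 to replicate 2 of Mirlet7f-2, which did not pass, turned to 0.00625. The count of genes that differed between the libraries was 6 with at least 1 or 100 counts, TMM or DESeq2 scaling, or the column that ignored strand. It fell to 0 with the negative binomial test and with the 1.5-fold rule per assigned count, and the 1.5-fold rule per all reads, added after seeing the data, gave 4. The negative binomial test allows for spread beyond counting error, but takes that spread from the same libraries that it compares. The fold rule makes no test. Pseudocounts of 0.1 and 5 CPM and the column that ignored strand moved levels and ratios by less than 1 SD, with 4 exceptions. The log2 ratio of Mirlet7f-2 to Mirlet7f-1 was 4.05 at 5 CPM. In the column that ignored strand Mirlet7f-2 was at 1558 CPM, Mirlet7f-1 was at 0, so its ratios were not recomputed, and the log2 ratio of the 9 genes to the 3 let-7 genes of the other clusters was 7.65, since Mirlet7e, overlapped by Gm25927, is at 0 there too. Without one replicate the values are those of the other library given above. Counting error relative to the count was largest for Mirlet7f-1 and Mirlet7a-1, which had the fewest counts of the 9 genes.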
